A study of Danio rerio with 12 samples.

Results

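The keratin genes krt15 and krt94 were described in whole zebrafish (Danio rerio) larvae on 12 single-colour Affymetrix arrays. They were 2 of the 8793 genes to which the platform annotation gives a probe set of their own (Entrez gene IDs 406844 for krt15 and 768289 for krt94). Each was read by 1 of the 15617 probe sets. All probe sets with either gene symbol were taken, over all 12 arrays, and their signal was read against that of the cyp1a probe set, above or below 5000. The pair had been picked out because its signal was low where that of cyp1a was high in these same arrays. Levels set against cyp1a are therefore a description, without a test. The labels give 4 groups of 3 libraries, each a pool of about 30 larvae. Embryos of wild-type fish from a commercial supplier received 0.1 µM of the estrogen 17beta-estradiol (E2) with 1 nM of the dioxin TCDD, TCDD alone at 1 nM, E2 alone at 0.1 µM, or 0.1% of the solvent DMSO, in which the compounds were dissolved. Exposure lay between 72 and 96 hours post fertilisation, and larvae were collected at 96 hours. Each description also carries a code such as W248C. Its last letter, C in 4 libraries and B in 8, was used here as a batch, an inference from the series text, which speaks of 2 batches. The series text calls the 3 libraries of a group biological replicates, while 4 code numbers occur under both letters and may each stand for 1 RNA. The p-values therefore measure the spread between arrays, some of which may be technical.

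Keratins are the intermediate filament proteins of epithelial cells. A type I and a type II keratin pair to form each filament, and the set of keratins changes with the layer of the skin and with cell maturation. The epidermis of a zebrafish larva has a superficial layer (periderm) over a basal layer. In humans KRT15 is a type I keratin of basal keratinocytes. The dioxin TCDD binds the aryl hydrocarbon receptor (AHR), a transcription factor that induces cyp1a, a monooxygenase gene, and in humans skin disease (chloracne) is a known sign of dioxin exposure. Arrays of whole larvae cannot place a transcript in the skin. Fewer cells of a type and less RNA per cell cannot be told apart in such pools either.

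The cyp1a signal went against the titles in 4 libraries of letter B. It was 20170.0 to 23173.2 in 6 libraries, those labelled E2+TCDD 1, E2+TCDD 2, E2+TCDD 3, TCDD 1, E2 2 and E2 3, and 263.9 to 414.7 in the other 6. The libraries labelled E2 2 and E2 3 thus had high cyp1a, and those labelled TCDD 2 and TCDD 3 had low cyp1a. The reading of 5000 fell in a wide empty range, since the lowest signal above it was 48.6 times the highest signal below it. Estrogens induce the brain aromatase gene cyp19a1b, whose signal also went against titles in letter B. It was only 36.1 under the label E2+TCDD 2 and 45.7 under E2 2, but 256.9 under TCDD 3 and 287.0 under DMSO 3. Titles of letter B may therefore not name the exposure, which the labels do not settle, and no labelled comparison in which letter B takes part can be read with certainty as an effect of the compound named. No library was given a new group. Signal is the authors' intensity on a linear scale, and log2 differences were taken after adding 16 to the signal.

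The krt15 signal was low in every library with high cyp1a and high in every library with low cyp1a, whatever the title. It was 854.5, 982.0 and 905.3 under the labels E2+TCDD 1, 2 and 3, and 898.2, 2669.5 and 2347.6 in those labelled TCDD 1, 2 and 3. It was 2517.8, 819.7 and 916.8 in those labelled E2 1, 2 and 3, against 2761.4, 2563.6 and 2530.9 in those labelled DMSO 1, 2 and 3. The labelled TCDD and E2 groups each held both levels, while the E2+TCDD and DMSO groups each held one. Over the 6 libraries with cyp1a above 5000 the median was 901.8 (819.7 to 982.0), against 2547.2 (2347.6 to 2761.4) over the 6 with cyp1a below it. The lowest value of the second set was 2.39 times the highest of the first. Within each set the highest library was only 1.2 and 1.18 times the lowest, so the libraries next to each other in the order of krt15 did not part within a set. Among all 12, the only wide step lay between the library labelled E2+TCDD 2 (982.0) and that labelled TCDD 3 (2347.6).

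**Figure D1:**
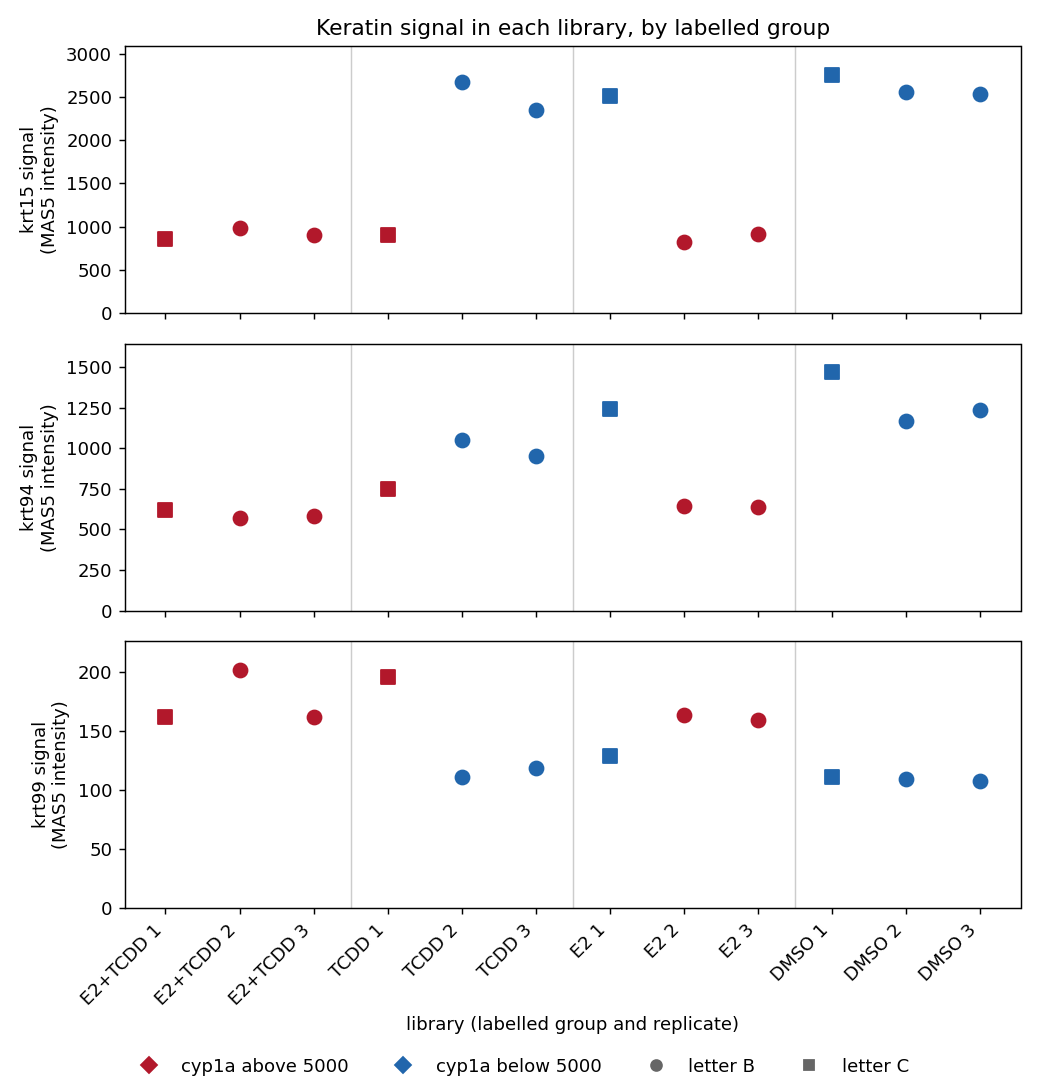
Signal (MAS5 intensity, linear axes from 0) of krt15, krt94 and krt99 in each of the 12 libraries, ordered by labelled group and replicate. Colours show the cyp1a reading and shapes the description letter. For krt15 the 6 libraries with cyp1a above 5000 lie between 819.7 and 982.0 and the others between 2347.6 and 2761.4, and for krt99 the order is turned round.

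The krt94 signal was ordered by cyp1a in the same way, with a smaller step and a wider spread. It was 620.8, 567.8 and 584.4 under the labels E2+TCDD 1, 2 and 3, and 745.9, 1050.5 and 952.7 in those labelled TCDD 1, 2 and 3. It was 1240.2, 642.9 and 638.9 in those labelled E2 1, 2 and 3, against 1467.9, 1165.9 and 1234.6 in those labelled DMSO 1, 2 and 3. Over the 6 libraries with cyp1a above 5000 the median was 629.8 (567.8 to 745.9), against 1200.2 (952.7 to 1467.9) over the 6 with cyp1a below it. The 2 sets did not overlap, the lowest of the second being 1.28 times the highest of the first, the libraries labelled TCDD 3 and TCDD 1. Within the sets the highest library was 1.31 and 1.54 times the lowest, a spread wider than that gap. Both probe sets passed the filter on dim values.

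**Figure D2:**
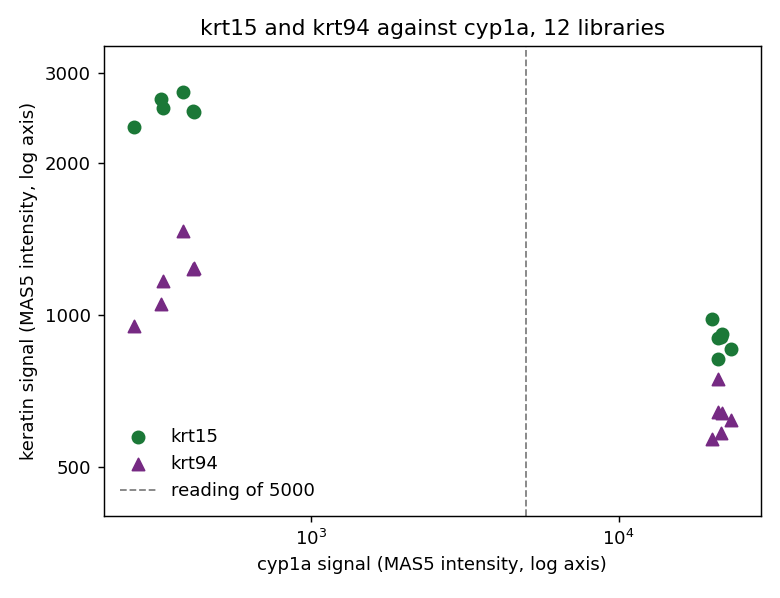
Signal of krt15 and krt94 (vertical, log axis) against that of cyp1a (horizontal, log axis), both as MAS5 intensity, with 1 point per library and gene. Both keratins form 2 separate clouds, 1 on each side of the cyp1a reading of 5000 (dashed), with no library between them.

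Values that did not overlap between the 2 sets of libraries were uncommon on the array. Of the 11626 probe sets kept by a filter on dim values, 70 (0.602%) were lower in all 6 libraries with cyp1a above 5000 than in all 6 with cyp1a below it, and 134 (1.15%) were higher in all 6. Ordered by the log2 gap between the sets, krt15 had the widest downward gap of all 11626 and krt94 the eighth, although without the added constant sox9b was just ahead of krt15 (2.40 against 2.39 times). Directly after krt15 came sox9b, a transcription factor gene of cartilage development, at 224.2 to 318.6 against 765.9 to 875.7. Because krt15 and krt94 were chosen from this pattern, their ranks describe the choice and support nothing further.

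The remaining keratins of the array moved little between the same sets, with krt99 as the exception. The platform had 16 probe sets for 13 other keratin genes, of which 15 probe sets for 12 genes passed the filter, and krt95 was too dim. Of these 15, 2 were lower in all 6 libraries with cyp1a above 5000, against 0.602% of all probe sets kept. Another 1 was higher in all 6, against 1.15%, and 12 overlapped. The difference from these shares was not tested. Apart from krt99, the median with high cyp1a was 0.845 to 1.04 times the median with low cyp1a. Among these, it was the higher median only for krt5 (1.01) and 1 probe set of krt1-19d (1.04), so most were slightly lower. The type II keratin gene krt4, of the superficial epidermis, had a median signal of 19267.8 (18034.1 to 20057.3) against 21657.6 (19162.1 to 22523.8). For krt5, a type II keratin gene of the epidermis, the median was 11616.7 (11274.0 to 12852.4) against 11451.4 (10906.8 to 13517.4). The simple-epithelium keratin gene krt8 had a median of 8558.4 against 9298.2, and its type I partner krt18a.1 had 3103.1 against 3424.0, each with overlap. Probe sets of 1 gene disagreed for krt91 and krt1-19e, a type I keratin gene of the basal epidermis. For krt91, 1 of 2 probe sets was lower in all 6 (7786.8 to 8939.4 against 9532.0 to 10516.7), whereas the other overlapped. For krt1-19e, 1 of 2 was lower in all 6 (8038.9 to 9276.0 against 9343.4 to 11064.2), whereas the other overlapped. Keratin transcripts are alike in sequence, and how far a probe set binds those of related genes was not tested.

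**Figure D3:**
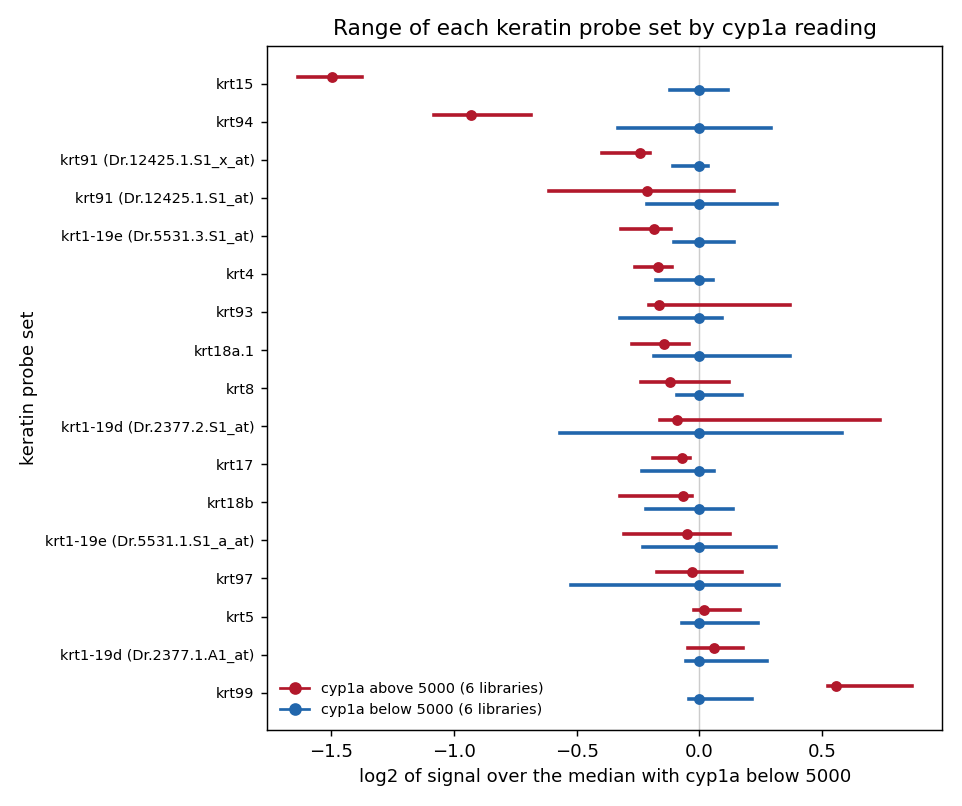
Range (line) and median (point) of each keratin probe set in the 6 libraries with cyp1a above 5000 and the 6 with cyp1a below it, on a log2 scale set to 0 at the median of the second set. The ranges of krt15 and krt94 lie far to the left, that of krt99 to the right, and most others overlap.

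The gene krt99 ran opposite to krt15 and krt94. It was singled out after its values were seen. Its signal was 161.7, 201.6 and 161.4 under the labels E2+TCDD 1, 2 and 3, and 195.6, 110.6 and 118.4 in those labelled TCDD 1, 2 and 3. It was 128.4, 163.4 and 158.9 in those labelled E2 1, 2 and 3, against 110.7, 109.4 and 107.3 in those labelled DMSO 1, 2 and 3. The 6 libraries with cyp1a above 5000 spanned 158.9 to 201.6, all higher than the 107.3 to 128.4 of the other 6, a share of 1.15% of all probe sets showing that order. In the RefSeq gene table of assembly GRCz12tu, krt93, krt94, krt98, krt15 and krt99 follow one another in that order on 1 chromosome, with no other listed gene between them. Within this run of neighbours krt15 and krt94 were lower with high cyp1a, krt99 was higher, and krt93 overlapped at 106.6 to 159.0 against 98.3 to 131.2. No probe set was assigned to krt98.

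The labelled comparisons asked what each exposure changed against the solvent, in a limma fit to all 12 libraries with the letter as a batch term. For krt15 the mean signal reached 913.9 ± 64.2 for the E2+TCDD label and 2618.6 ± 124.7 for the DMSO label (SD, n = 3 each), a log2 difference of -1.50 (SE 0.39), or 2.84-fold lower. For krt94 it was 591.0 ± 27.1 in those labelled E2+TCDD and 1289.5 ± 158.3 in those labelled DMSO (SD, n = 3 each), a log2 difference of -1.10 (SE 0.19), or 2.14-fold lower. The direction held within both letters, at -1.67 in letter C and -1.42 in letter B for krt15, and at -1.22 and -1.04 for krt94. All libraries labelled E2+TCDD had high cyp1a and all labelled DMSO low cyp1a, so this contrast runs along the split by which the pair was chosen, and no test is read from it. Of all probe sets 0.0602% passed in this contrast, a share given as background only.

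In the libraries labelled E2, krt15 had a mean signal of 1418.1 ± 953.6, against 2618.6 ± 124.7 in those labelled DMSO (SD, n = 3 each). The log2 difference was -1.07 (SE 0.39, limma adjusted p = 0.730), which did not pass. Within letters it was -0.13 (C) and -1.54 (B). For krt94 the mean was 840.7 ± 346.0 in those labelled E2 and 1289.5 ± 158.3 in those labelled DMSO (SD, n = 3 each), a difference of -0.67 (SE 0.19, limma adjusted p = 0.730), with -0.24 in letter C and -0.89 in letter B. Of all probe sets 0% passed for this comparison (0 by limma, 770 at an unadjusted p under 0.05; no other tool was run). Without the library labelled E2 1, the only one of its group with low cyp1a, the differences were -1.74 for krt15 and -0.99 for krt94, and both passed in limma. The letter term of that fit was 0.50 for krt15 and shifts its difference, which was -1.54 within letter B alone. The libraries labelled E2 2 and E2 3 that remain both had high cyp1a. This contrast too thus runs along the split by which the pair was chosen and is no independent test. The comparison of all 3 libraries labelled E2 follows that split in part, since it holds E2 2 and E2 3. Its p-values are no independent test either.

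In the libraries labelled TCDD, krt15 had a mean signal of 1971.8 ± 943.6, against 2618.6 ± 124.7 in those labelled DMSO (SD, n = 3 each). The log2 difference was -0.55 (SE 0.39, limma adjusted p = 0.684), with -1.60 in letter C and -0.02 in letter B. For krt94 the mean was 916.4 ± 155.5 in those labelled TCDD and 1289.5 ± 158.3 in those labelled DMSO (SD, n = 3 each), a difference of -0.49 (SE 0.19, limma adjusted p = 0.404), with -0.96 in letter C and -0.26 in letter B. Without the library labelled TCDD 1, the only one of its group with high cyp1a, the krt15 difference was 0.10 and the krt94 difference -0.21. The letter term of that fit was -0.50 for krt15 and shifts its difference. Within letter B alone it was -0.02, so the 0.10 shows no rise. Again 0% of probe sets passed (0 by limma, 1114 at an unadjusted p under 0.05). The library labelled TCDD 1 carries part of the split in cyp1a into this comparison, so the p-values given for TCDD are no independent test either. The spread in all these fits includes libraries whose cyp1a reading goes against their title.

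The codes W248, W249, W252 and W255 each occur with both letters, which gives 8 libraries in 4 pairs. In letter C these codes carry the titles DMSO, E2, TCDD and E2+TCDD, in that order, and cyp1a and cyp19a1b match those titles. In letter B each of these codes had the same high or low reading of both genes as in letter C, under another title except for W248. For krt15 and krt94, libraries of the same code, which share a cyp1a reading, lay close together. Among these 8 libraries, different codes with the same cyp1a reading lay about as close within a letter. Such codes differed by -0.13 to 0.16 for krt15 and by -0.26 to 0.08 for krt94 on the log2 scale. Between letter B and letter C of the same code, krt15 differed by -0.11, 0.01, -0.13 and 0.10 on the log2 scale for W248, W249, W252 and W255, and krt94 by -0.33, -0.01, -0.21 and 0.04. Between W252 and W248, krt15 was 898.2 against 2761.4 in letter C and 819.7 against 2563.6 in letter B, log2 differences of -1.60 and -1.63. Between W255 and W249 they were -1.54 and -1.45. For krt94 the log2 differences were -0.96 and -0.84 between W252 and W248, and -0.98 and -0.93 between W255 and W249. Codes found only in letter B gave somewhat smaller steps for krt15, at -1.43 between W362 and W357 and -1.36 between W365 and W358. For krt94 these were -0.87 and -0.69. The codes of these contrasts differ in cyp1a, so these values too are a description. Of all probe sets 1.66% passed between W252 and W248, and 0.697% between W255 and W249. In the same pairs krt99 was 0.74 and 0.52 higher between W252 and W248, and 0.30 and 0.50 higher between W255 and W249.

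**Figure D4:**
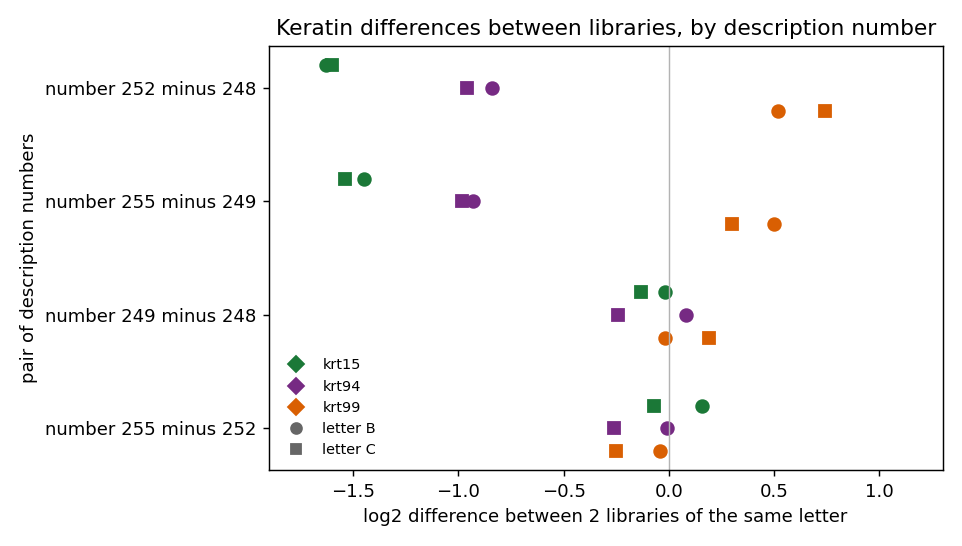
Log2 difference in signal between 2 libraries of the same letter, for 4 pairs of description numbers (as in W248), with 1 point per letter and gene (circles letter B, squares letter C). For krt15 the points lie at -1.63 to -1.45 where the codes differ in cyp1a and at -0.13 to 0.16 where they do not.

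Contrasts in which cyp1a did not differ showed small keratin differences. Between W249 and W248, which differ in cyp19a1b at low cyp1a, krt15 differed by -0.08 on the log2 scale (95% interval -0.30 to 0.15, limma adjusted p = 0.999) and krt94 by -0.08 (-0.34 to 0.18, limma adjusted p = 0.999). Of all probe sets 0.0172% passed. Between W255 and W252, which differ in cyp19a1b at high cyp1a, krt15 differed by 0.04 (-0.18 to 0.27, limma adjusted p = 0.986) and krt94 by -0.13 (-0.39 to 0.12, limma adjusted p = 0.982), with 0.00860% of probe sets past the test. The intervals leave room for a difference of up to 0.30 for krt15 and up to 0.39 for krt94. The pair was chosen for signals that split by cyp1a, a choice that favours a small spread within each reading. The p-values and intervals of these contrasts are therefore no independent test. Both libraries of a number may be from 1 RNA extract, in which case these intervals leave out variation between pools of larvae.

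Read over all 12 libraries, the cyp19a1b signal was high (over 150) in 3 libraries of each cyp1a set. With cyp1a below 5000, krt15 was 2347.6 to 2530.9 in the 3 libraries with high cyp19a1b, all lower than the 2563.6 to 2761.4 in the 3 with low cyp19a1b. This order was shown by 1.93% of all probe sets. With cyp1a above 5000, krt15 was 854.5 to 916.8 in the libraries with high cyp19a1b and 819.7 to 982.0 in those with low cyp19a1b, and they overlapped. For krt94 the ranges overlapped in both sets. These readings came from the arrays themselves and were not tested.

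The letters separated libraries widely for the array as a whole. Neither member passed, but for them this fit decides little. In letter B the libraries labelled E2 had high cyp1a and those labelled TCDD low, the reverse of letter C. This widens the spread, the residual SD of krt15 being 0.66 here and 0.08 in the fit to the 8 libraries with shared codes. Between letter B and letter C, with the labelled group in the fit, 38.0% of probe sets passed. The codes W357, W358, W362 and W365 occur only in letter B, so this fit does not part the letter from the run of codes. The log2 difference between the letters was -0.01 for krt15 (95% interval -0.63 to 0.61, limma adjusted p = 0.984) and -0.23 for krt94 (-0.53 to 0.07, limma adjusted p = 0.215). These values depended on libraries whose cyp1a reading differs from that of others with their title. Without the library labelled E2 1 the difference was 0.50 for krt15 and 0.01 for krt94, and without that labelled TCDD 1 it was -0.50 for krt15 and -0.44 for krt94, of which the last passed in limma. In these fits the letter is carried partly by the split in cyp1a, so they give no test of the letter. Of the 15 other keratin probe sets 2 were higher and 4 lower in letter B. Together this share was near the 38.0% of all probe sets. Lower were a probe set of krt1-19d (-0.66, SE 0.08, limma adjusted p = 9.56e-05) and krt97 (-0.31, SE 0.07, limma adjusted p = 0.00415). So were krt8 (-0.18, SE 0.04, limma adjusted p = 0.00328) and krt18a.1 (-0.2, SE 0.05, limma adjusted p = 0.0114). Within letter B, both were also lower in the codes found only there, at each cyp1a reading. Higher were probe sets of krt1-19e (0.31, SE 0.06, limma adjusted p = 0.00144) and krt91 (0.3, SE 0.1, limma adjusted p = 0.0276). The other probe sets of krt1-19d, krt1-19e and krt91 did not pass, at 0.11, 0.04 and -0.03.

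Within letter B, krt94 also differed between the 2 runs of description codes. At low cyp1a it was 1050.5 and 952.7 in W357 and W358, against 1165.9 and 1234.6 in W248 and W249. At high cyp1a it was 567.8 and 584.4 in W362 and W365, against 642.9 and 638.9 in W252 and W255. It was thus lower in the later codes within each cyp1a reading, an order that 7.18% of all probe sets showed, and that 4 of the 17 keratin probe sets kept showed, krt8, krt18a.1 and krt93 being the others. For krt15 the later codes overlapped with the earlier ones in both readings, at 2669.5 and 2347.6 against 2563.6 and 2530.9, and at 982.0 and 905.3 against 819.7 and 916.8.

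Genes of the skin and its neighbours were read from 8 lists. They hold 129 genes, and 67 of those were measured by a probe set that passed the filter. None of the 67 passed in the comparisons of the libraries labelled E2+TCDD, TCDD or E2 with those labelled DMSO, or between W249 and W248, W255 and W252, or W255 and W249. Of all probe sets 0.0602% passed for the E2+TCDD label, and 0% for TCDD and for E2. Between the codes, in the order given, 0.0172%, 0.00860% and 0.697% passed. At such shares few or none of 67 genes would pass, so this says little about the skin. Between W252 and W248, 1 was higher and 1 lower, 2 of 67 against 1.66% of all probe sets, with a median log2 difference of 0.02 over the 67, against -0.007 over all probe sets. The gene that rose was rhcgb, an ammonia transporter gene of ionocytes (0.99, SE 0.21, limma adjusted p = 0.0279), which differed by 0.01 (SE 0.21) between W255 and W249. The gene that fell was the melanosome gene pmelb (-0.79, SE 0.16, limma adjusted p = 0.0177), whose signal was 171.1 to 450.7 with high cyp1a and 231.1 to 605.7 with low cyp1a, with overlap.

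Of 21 measured periderm genes, 0 were lower or higher in all 6 libraries with cyp1a above 5000. Over all probe sets kept, 0.602% were lower in all 6 and 1.15% higher in all 6. At such shares lists this short would hold few such genes or none, so these counts say little about the skin. The mean log2 level of that list was 10.61 to 10.73 with high cyp1a and 10.56 to 10.80 with low cyp1a. Of 9 basal keratinocyte genes 1, krt91, was lower in all 6, and the mean level of the list was 10.22 to 10.40 against 10.24 to 10.46. Each list gene was read by its brightest probe set, and the other krt91 probe set overlapped (5670.6 to 9567.7 against 7481.9 to 10808.4). For krt1-19e the choice works the other way. Its brightest probe set overlapped, while the dimmer one was lower in all 6 (8038.9 to 9276.0 against 9343.4 to 11064.2). The epidermal master regulator tp63 had a median of 411.0 (356.2 to 543.2) against 465.6 (382.2 to 500.6). Of 10 genes of desmosomes and junctions 0 separated the sets, and the mean level was 9.79 to 9.88 against 9.82 to 9.96. Desmosomes anchor keratin filaments at the cell border, and the desmoplakin gene dspa had a median of 665.7 (603.4 to 752.1) against 726.1 (664.0 to 752.6). The list of 7 epidermal transcription factors was the only one of the 8 whose mean level did not overlap, at 9.05 to 9.19 with high cyp1a and 8.87 to 9.03 with low cyp1a. None of its genes separated the sets alone. Among them klf3 had 634.8 to 844.4 against 488.8 to 660.2, with overlap. How often the mean of so few genes separates the sets over the array was not tested. The lists of ionocyte (5 measured), hatching gland (3), pigment cell (4) and fin fold genes (10) had 0 genes that separated the sets. Whether a change in the make-up of the larvae had a part in the low krt15 and krt94 was not tested.

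The probe sets most like krt15 over the 12 libraries were taken by Pearson's r of log2 signal, among probe sets with 1 symbol. They were those of sox9b (r = 0.980), the matrix protein gene spon2b (0.971), the chemokine gene cxcl12a (0.963 and, in a second probe set, 0.946), cd248a (0.962), plvapb, whose mammalian counterpart acts in the diaphragms of endothelial cells (0.960), krt94 (0.942) and the collagen V gene col5a2a (0.923). The most like krt94 were cd248a (0.953), krt15 (0.942), the claudin gene cldn11a (0.941), spon2b (0.928), the collagen XV gene col15a1a (0.925), the coagulation factor XIII subunit gene f13a1b (0.913), cxcl12a (0.910) and gpm6ab (0.910). The libraries fall into 2 separate sets, and this split enters every r over all 12. After each set was centred on its own mean, r with krt15 was -0.335 for cd248a, -0.073 for sox9b, 0.071 for plvapb, 0.239 for spon2b, 0.558 and 0.387 for the probe sets of cxcl12a and 0.608 for col5a2a. With krt94 it was 0.173 for cxcl12a, 0.212 for spon2b and 0.5 to 0.697 for cd248a, cldn11a, col15a1a, f13a1b and gpm6ab. Between krt15 and krt94 it was 0.252. All the genes named here were lower in all 6 libraries with cyp1a above 5000 except gpm6ab, which overlapped (4743.3 to 5513.2 against 5506.4 to 6370.0).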

How the data were processed

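Values are MAS5 signal, an intensity on a linear scale that the authors made in Affymetrix Expression Console and deposited, per the submitters' processing notes. Versions, settings and a genome build are not given in the sources used here. The mean of each array, with 2% trimmed from each side, was 500.12 to 500.14, so no further scaling was applied before log2 of signal plus 16. From the 15617 probe sets, 115 controls and then those with a mean log2 under the 25th percentile were dropped, which left 11626. Symbols came from the platform table (10802 probe sets with 1 symbol), updated by gene ID. Groups came from the titles. The models were linear, on group plus letter (12 libraries) or code number plus letter (8 libraries), fitted by limma 3.58.1 (R 4.3.3) with a variance trend. Tests were two-sided, and a call needed p under 0.05 after the Benjamini-Hochberg correction across the 11626. The script was tested on simulated data with independent noise, at the spread of the fit to 12 libraries. Those data held no shared RNA and no library at odds with its title, so the test does not cover these features. Arrays carry no counts, so their number limits precision.

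Named genes were the members, all keratins, the 8 probe sets most correlated with each member, list genes that passed, and genes standing for a list. The separate values of tp63, dspa, klf3 and krt99 and the split by cyp19a1b were chosen after seeing them. The members and lists were chosen with earlier results of these data known. The replicate numbers of the titles do not pair libraries by any label. The symbol krtcap2, which begins like a keratin's, belongs to another kind of gene and was left out of the keratin counts.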

Additional observations from a re-analysis of the deposited data

How the results depend on the processing

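The 16 differences of krt15 and krt94 (2 genes, 8 contrasts) kept their direction and call, or where untested moved by less than the residual SD, in all 138 alternative values that kept every library: pseudocounts of 1 and 64, no filter or one at the 50th percentile, quantile normalisation, median centring, no variance trend, no letter term, only the groups compared, and the replicate block. With the replicate block, which shares only a number, krt15 differed by -1.07 in the libraries labelled E2, -0.55 in TCDD and -1.50 in E2+TCDD against DMSO, and krt94 by -0.67, -0.49 and -1.10. The filter, variance trend, letter term, block and choice of groups leave these log2 differences unchanged in this balanced design. For untested contrasts, agreement under those settings was therefore assured. The residual SD for E2+TCDD against DMSO was also wide, at 0.66 for krt15 and 0.30 for krt94. Of 160 values without 1 library 142 did likewise, 11 turned sign (none of them past the test), 3 newly passed and 4 untested ones moved further. The ranges without 1 library were -0.86 to 0.10 (krt15, TCDD against DMSO), -0.50 to 0.50 (krt15, letter B against C), -0.44 to 0.01 (krt94, letter), -0.04 to 0.13 (krt15, W255 against W252) and -0.21 to 0.06 (krt94, W249 against W248), each with a turned sign. They were -1.74 to -0.76 (krt15) and -0.99 to -0.54 (krt94) for E2 against DMSO, -1.58 to -1.41 (krt15, W255 against W249) and -1.04 to -0.77 (krt94, W252 against W248). The values that passed were the lowest ones for E2 against DMSO, without E2 1, and for krt94 by letter, without TCDD 1. Those fits follow the split in cyp1a wholly or in part, so such passes are no independent tests. The rise of krt99 between W252 and W248, and between W255 and W249, was 0.48 and 0.31 at a pseudocount of 64, against 0.63 and 0.40, as a larger constant shrinks differences of low signals.

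Counts over all probe sets moved far more. For E2+TCDD against DMSO 7 passed, 183 in a fit to only those groups, 18 after median centring, 0 without the letter term or the variance trend, and 0 to 166 without 1 library. For E2 and for TCDD against DMSO 0 passed, but 8 and 1 in fits to only the groups compared, and up to 30 and up to 5 without 1 library. Between W252 and W248, 193 passed, 14 without the letter term, 37 without the variance trend and 44 to 180 without 1 library. Between W255 and W249, 81 passed, 15 and 21 under the same changes and 25 to 101 without 1 library. Between W249 and W248, 2 passed (0 to 5 over all settings), and between W255 and W252, 1 (0 to 10). The causes were not tested.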
